A study of Mus musculus with 16 samples.

Results

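The genes described here serve the path from glucose to pyruvate and lactate. They were measured in embryonic stem cells (ESCs) of the mouse, which are pluripotent cells from the early embryo. They are 32 genes chosen by name, out of 35968 genes in the summed table. They comprise glucose transporters, the enzymes of glycolysis, the enzymes that set fructose-2,6-bisphosphate, lactate dehydrogenases and lactate transporters, and the kinases and E1 subunits of pyruvate dehydrogenase. Poly(A) RNA was sequenced from 4 groups with 4 libraries each. These were wild-type (WT) ESCs in normal ESC culture, WT ESCs in mTORi culture, ESCs with the genotype label DGCR8 KO in normal culture, and the same genotype in mTORi culture. Cells were taken at day 2, from 800000 cells per sample, with 1 µg of total RNA as input. mTORi is inhibition of the growth kinase mTOR, which the study used to induce pausing, a reversible dormancy related to diapause. DGCR8 binds primary microRNA transcripts and guides the nuclease Drosha to cut them. The labels give no clone, no deleted part of the gene and no separate cultures for the replicates, so each p-value covers only the spread among these libraries, which may be technical.

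Glycolysis splits glucose into a pair of triose sugars and oxidises them to pyruvate, with a net gain of ATP. Pyruvate is either reduced to lactate by lactate dehydrogenase and exported by monocarboxylate transporters, or enters mitochondria and is oxidised by the pyruvate dehydrogenase complex, which the PDK kinases switch off. Many steps are served by several isozymes from separate genes, and several of these genes are known targets of hypoxia-inducible factors (HIF) and of MYC. Pluripotent stem cells are known for a high rate of glycolysis.

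Libraries held 88377380 to 116646028 estimated counts and 22513 to 23959 detected genes. All 10 ESC markers examined were present, with a summed level of 6846 to 9638 TPM (a level corrected for transcript length). Summed markers of endoderm reached at most 9.17 TPM, of trophoblast 44.9 TPM and of neural cells 19.2 TPM. The 8 fibroblast markers summed to 10.3 to 13.9 TPM in WT and 24.3 to 33.1 TPM in libraries labelled KO, and the part of this difference in the results was not tested. In each group 6 or 7 of these 8 markers stayed under 1 TPM. Of the 4 that passed the filter on low counts, 2 were higher and 2 lower with the KO label in normal culture. When paused, 2 were higher and 1 lower. Dgcr8 itself did not check the genotype label, since it was higher in the 8 libraries labelled KO (173 to 256 CPM, counts scaled to library size with TMM) than in the 8 WT libraries (45.3 to 56.2 CPM). Its protein-coding transcript Dgcr8-201 was likewise higher with the KO label, at 50.1 to 68.6 TPM against 11.3 to 17.1 TPM. A minor one, Dgcr8-209, was at 0 TPM in every library labelled KO and at 0.397 to 0.695 TPM in WT. The make-up of the other transcripts differed too. Dgcr8-206, annotated as a processed transcript, was at 42.9 to 61.7 TPM with the KO label and at 1.40 to 3.28 TPM in WT. Dgcr8-210, of the same type, was at 5.98 to 8.73 TPM against 0.241 to 1.08 TPM. Dgcr8-208, also of this type, was lower with the KO label, at 0 to 0.330 TPM against 0.333 to 1.15 TPM. Below, every statement on KO cells therefore refers to libraries so labelled. Replicates formed 2 pairs, 1 with 2 and 3 with 4, in 3 of the groups. The median chi-square between libraries was 1.88 to 2.16 inside a pair and 7.54 to 10.6 between pairs in WT normal culture, 1.22 to 1.83 and 3.06 to 3.91 in WT paused, and 1.79 to 2.45 and 3.10 to 4.81 in normal culture with the KO label. In paused libraries labelled KO, 1 paired with 3 and 2 with 4.

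All 32 members passed the filter on low counts. Pausing lowered most of the pathway, and did so more in cells labelled KO. In WT cells 17 members fell, 10 rose and 5 did not pass the test (edgeR quasi-likelihood test, adjusted p under 0.05). Of all 18944 genes tested, 60.7% passed, 33.3% higher and 27.5% lower. In cells labelled KO 22 members fell, 8 rose and 2 did not pass, where 67.2% of all genes passed, 34.4% higher and 32.8% lower. The median log2 fold change of the members was −0.32 in WT and −0.79 in cells labelled KO, beside 0.04 and 0.02 over all genes. Falls of at least 1 on the log2 scale were found for 4 members in WT and 10 in cells labelled KO, where 4.17% and 6.08% of all genes fell as far. Only Ldhb in WT and Pfkfb2 in cells labelled KO rose as far, where 6.14% and 9.23% of all genes did. Since counts were scaled to library size, each change is relative to the other genes and not an amount per cell. In bulk RNA, fewer cells of a type and less RNA per cell cannot be told apart.

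**Figure D1:**
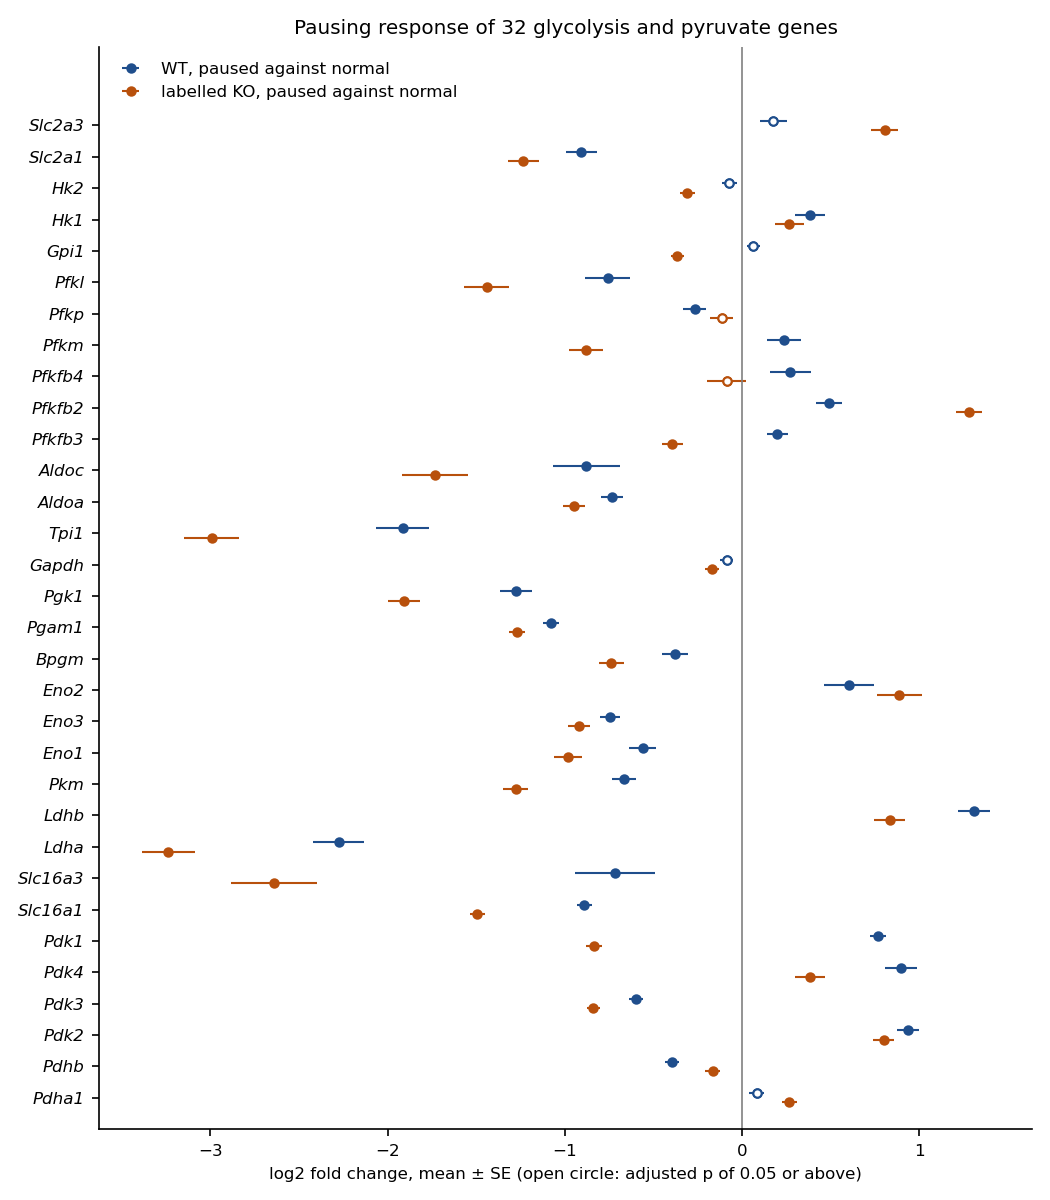
Log2 fold change of paused against normal culture for the 32 members, in pathway order from glucose transport to pyruvate dehydrogenase, with SE as bars, for WT (blue) and libraries labelled KO (orange). Filled circles passed an adjusted p of 0.05. Ldha and Tpi1 lie farthest to the left in both, while Pdk1, Pfkm and Pfkfb3 lie on opposite sides of 0. The WT rises of Pfkm and Pfkfb3 did not pass with replicates 3 and 4 alone.

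The difference between the 2 pausing responses (the interaction, labelled KO minus WT) passed the test for 24 members, negative for 20 and positive for 4. Over all genes 41.9% passed, 24.5% negative and 17.4% positive. The median interaction of the members was −0.36, against −0.03 over all genes. By direction, 13 members fell in both genotypes with a negative interaction, as did 6.18% of all genes. Interactions of at least 1 in size were found for 4 members, all negative, where 4.18% of all genes were negative and 4.58% positive by as much. For 3 members, Pdk1, Pfkm and Pfkfb3, a rise in WT and a fall in cells labelled KO both passed the test with a negative interaction, as for 3.6% of all genes. With replicates 3 and 4 alone, the WT rise did not pass for Pfkm (0.06, adjusted p = 0.4) or Pfkfb3 (0.09, adjusted p = 0.32). The WT rise of Pfkm was lost under 10 of 20 alternatives.

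The main lactate dehydrogenase RNA changed from one isozyme gene to the other on pausing, while protein is not part of these data. LDHA, the muscle-type subunit, is best known for turning pyruvate into lactate, and LDHB, the heart-type subunit, is usually linked to the use of lactate. Ldha was at 1046, 1054, 820 and 848 CPM in WT normal replicates 1 to 4 and at 182, 165, 223 and 207 CPM when paused. In libraries labelled KO it was at 1029, 888, 711 and 839 CPM in normal culture and at 104, 77.6, 105 and 81.6 CPM when paused. The paused libraries lay far below the normal ones with no overlap in either genotype. Ldha fell by 2.28 ± 0.14 on the log2 scale (SE, adjusted p = 3.4e-09) in WT, which is 4.85-fold, and by 3.24 ± 0.15 (adjusted p = 9e-11) in cells labelled KO, which is 9.44-fold. The interaction was −0.96 ± 0.20 (adjusted p = 0.0012).

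Ldhb went the other way. It was at 85.0, 87.8, 115 and 116 CPM in WT normal culture and at 252, 235, 261 and 255 CPM in paused WT. With the KO label it was at 296, 271, 261 and 278 CPM in normal and at 474, 474, 519 and 503 CPM in paused culture. Normal libraries labelled KO thus already stood near the level of paused WT. Ldhb rose by a log2 fold change of 1.31 ± 0.09 (adjusted p = 1.7e-09) in WT and 0.83 ± 0.09 (adjusted p = 2.7e-07) in cells labelled KO. The interaction of −0.48 ± 0.12 (adjusted p = 0.0051) was −0.75 with replicates 1 and 2 alone and −0.22 with replicates 3 and 4 alone.

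As a share of the summed Ldha and Ldhb TPM, Ldha made up 84.1% to 90.4% in WT normal and 35.7% to 40.2% in WT paused libraries. With the KO label it made up 67.3% to 72.6% in normal and 11.4% to 14.7% in paused culture. The major form was thus Ldha in all 8 normal libraries and Ldhb in all 8 paused libraries. The summed level of both genes was 982 ± 116 TPM (SD, n = 4) in WT normal and 558.5 ± 38.1 TPM in WT paused libraries, and 1215 ± 98.9 and 811 ± 20.4 TPM in those labelled KO. The share is a description, since no test was run on it.

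**Figure D2:**
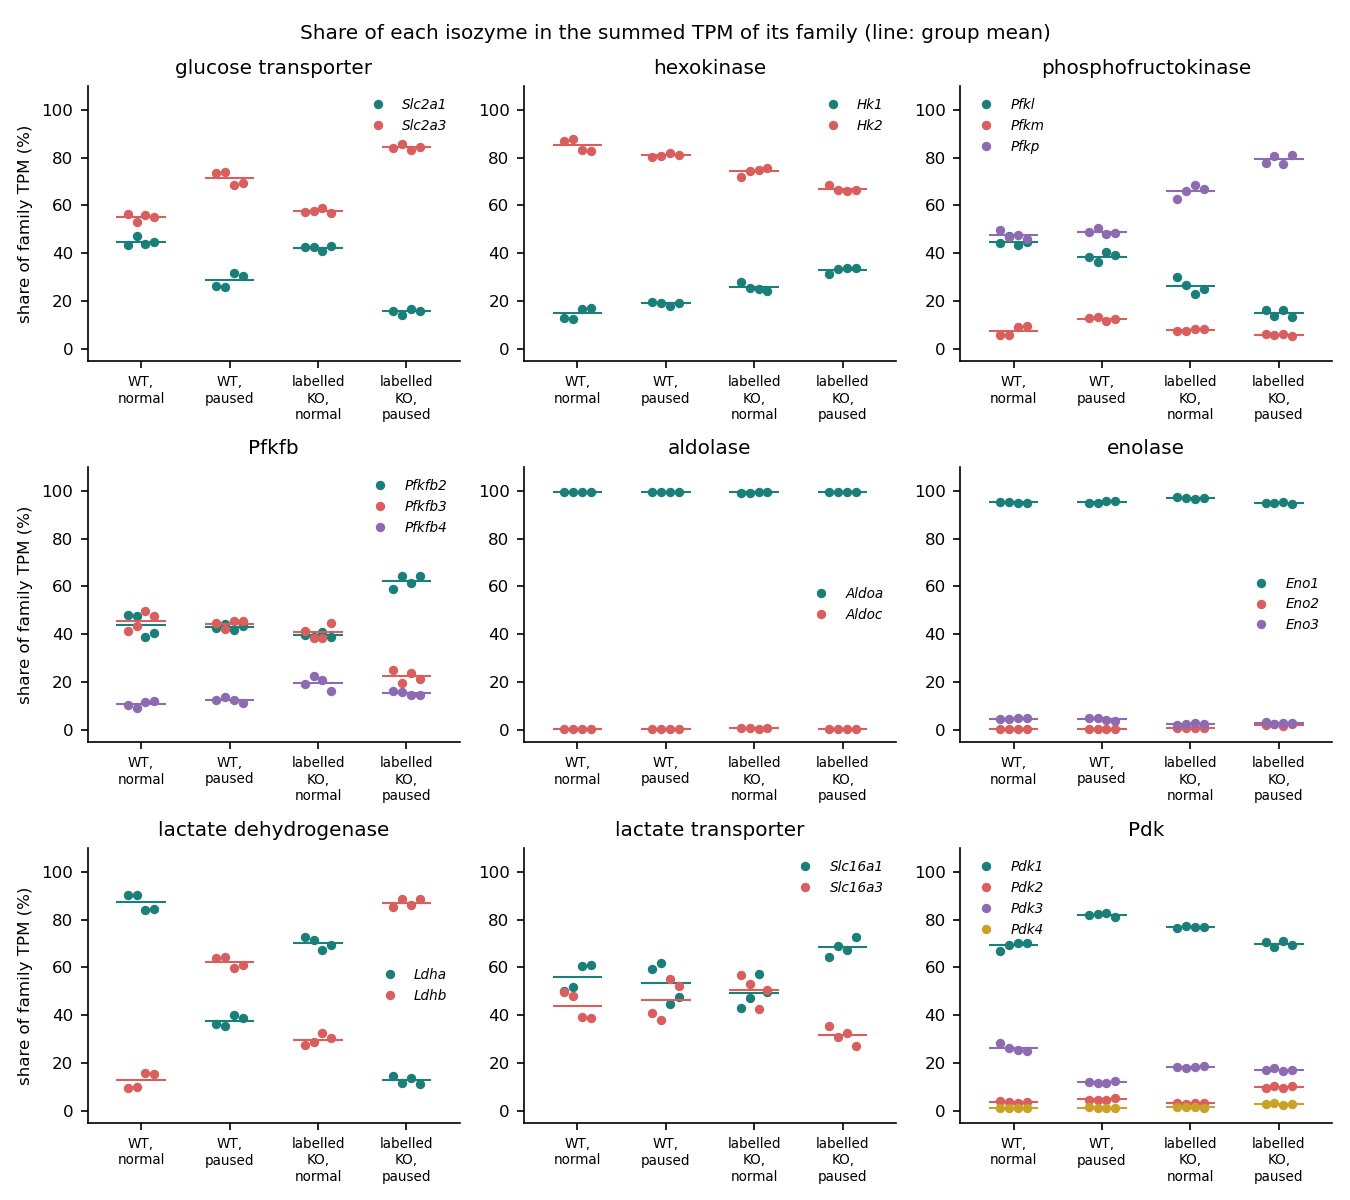
Share of each isozyme in the summed TPM of its family, in percent, for 9 families and 4 groups (points: libraries, lines: group means). Ldha makes up 84.1% to 90.4% in WT normal and 35.7% to 40.2% in WT paused libraries. With the KO label it makes up 67.3% to 72.6% in normal and 11.4% to 14.7% in paused culture. Slc2a1 also loses share on pausing in both genotypes.

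Promoters are shown for the 4 members that fell most in cells labelled KO, Ldha, Tpi1, Slc16a3 and Pgk1, and for Pdk1, which changed in opposite directions. The sequences are the 250 bases before and 50 after an annotated start in RefSeq (GRCm38.p6), written 5′ to 3′ along the gene, with capitals for ACGTG or GCGTG, the core of the HIF response element, on either strand. CACGTG, the E-box bound by MYC and its relatives, holds ACGTG on both strands, so each one counts as 2 cores. Coordinates are chr7:46845554-46845853 for Ldha, chr6:124814109-124814408 (minus strand) for Tpi1, chr11:120948817-120949116 for Slc16a3, chrX:106186850-106187149 for Pgk1 and chr2:71872974-71873273 for Pdk1.
Ldha: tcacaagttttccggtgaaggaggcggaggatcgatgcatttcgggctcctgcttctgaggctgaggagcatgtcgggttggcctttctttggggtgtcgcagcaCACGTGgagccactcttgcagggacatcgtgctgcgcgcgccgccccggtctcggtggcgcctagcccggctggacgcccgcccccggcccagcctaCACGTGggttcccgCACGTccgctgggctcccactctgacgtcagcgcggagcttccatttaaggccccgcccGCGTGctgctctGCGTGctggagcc
Tpi1: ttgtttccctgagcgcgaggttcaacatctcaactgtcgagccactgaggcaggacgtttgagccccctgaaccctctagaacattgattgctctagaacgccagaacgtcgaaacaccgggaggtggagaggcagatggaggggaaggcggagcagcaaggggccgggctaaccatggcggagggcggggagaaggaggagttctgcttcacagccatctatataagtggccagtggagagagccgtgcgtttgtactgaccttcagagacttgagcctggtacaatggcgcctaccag
Slc16a3: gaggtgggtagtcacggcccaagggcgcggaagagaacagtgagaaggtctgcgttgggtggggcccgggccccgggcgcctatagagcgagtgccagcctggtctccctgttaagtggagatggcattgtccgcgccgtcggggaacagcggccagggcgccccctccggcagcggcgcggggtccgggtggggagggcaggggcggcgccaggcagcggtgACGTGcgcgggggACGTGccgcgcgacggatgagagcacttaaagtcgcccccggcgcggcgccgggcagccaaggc
Pgk1: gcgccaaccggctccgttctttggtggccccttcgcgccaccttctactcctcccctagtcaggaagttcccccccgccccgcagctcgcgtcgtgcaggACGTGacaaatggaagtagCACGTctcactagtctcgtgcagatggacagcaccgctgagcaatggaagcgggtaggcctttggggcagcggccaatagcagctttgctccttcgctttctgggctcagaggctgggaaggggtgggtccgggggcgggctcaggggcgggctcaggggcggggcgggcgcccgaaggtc
Pdk1: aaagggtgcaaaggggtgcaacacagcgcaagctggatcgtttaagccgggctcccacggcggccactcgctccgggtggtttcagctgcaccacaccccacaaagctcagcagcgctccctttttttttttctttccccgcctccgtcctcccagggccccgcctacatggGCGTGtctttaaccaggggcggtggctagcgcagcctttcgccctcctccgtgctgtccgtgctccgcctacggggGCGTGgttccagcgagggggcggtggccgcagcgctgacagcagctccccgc
Ldha holds 7 cores with 2 E-boxes. Slc16a3, Pgk1 and Pdk1 hold 2 cores each with no E-box, and Tpi1 holds 0. Ldha and Pdk1 each have another annotated start, with 2 and 0 cores. Sequence outside these windows was not examined, and a link between these letters and the changes on pausing was not tested. Promoters were found for 31 members, 47 in all. At least 1 core was in 37 of these 47 (78.7%), beside 43.8% of 32851 promoters of the same length. CACGTG was in 6 of 47 (12.8%), beside 7.15% of all. Windows of the same gene can overlap, as for Eno1 and Aldoa. By gene, a core was in 27 of 31 members, beside 46.7% of 27025 genes, and CACGTG in 6 of 31, beside 8.09%. Base composition was not matched. A match is a description of letters, not of binding.

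The lactate transporters fell too, and most in cells labelled KO. SLC16A1 (MCT1) carries lactate both ways across the membrane, and SLC16A3 (MCT4) is the export form of highly glycolytic cells. Slc16a1 was at 115, 119, 125 and 125 CPM in WT normal, 65.8, 66.8, 64.3 and 64.0 CPM in WT paused, 148, 146, 140 and 141 CPM in normal and 55.5, 49.6, 50.7 and 48.3 CPM in paused libraries labelled KO. The normal and paused libraries did not overlap, and the fall was −0.89 ± 0.04 in WT (adjusted p = 3.5e-12) and −1.49 ± 0.04 in cells labelled KO (adjusted p = 7.8e-15). The interaction was −0.60 ± 0.06 (adjusted p = 3.5e-07).

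Slc16a3 was at 41.5, 40.4, 30.6 and 30.3 CPM in WT normal and at 16.9, 15.6, 28.4 and 26.1 CPM in WT paused libraries. With the KO label it was at 71.5, 60.2, 38.2 and 53.5 CPM in normal and at 11.1, 8.15, 9.42 and 7.17 CPM in paused culture. The gap was wide in the libraries labelled KO and narrow in WT, where replicates 3 and 4 of both cultures were close. The fall was −0.72 ± 0.23 in WT (adjusted p = 0.014), and with replicates 1 and 2 alone it was −1.33 but with replicates 3 and 4 alone −0.17 (adjusted p = 0.55). In cells labelled KO the fall was −2.64 ± 0.24 (adjusted p = 2.2e-07), and the interaction was −1.93 ± 0.33 (adjusted p = 0.00033), from −2.06 to −1.77 when 1 library was left out. Bsg (basigin), named here after its values were seen, is the partner that brings both transporters to the membrane, and it fell by 0.54 ± 0.05 in WT and 0.58 ± 0.05 in cells labelled KO (adjusted p = 1.1e-08 and 3.1e-09).

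**Figure D3:**
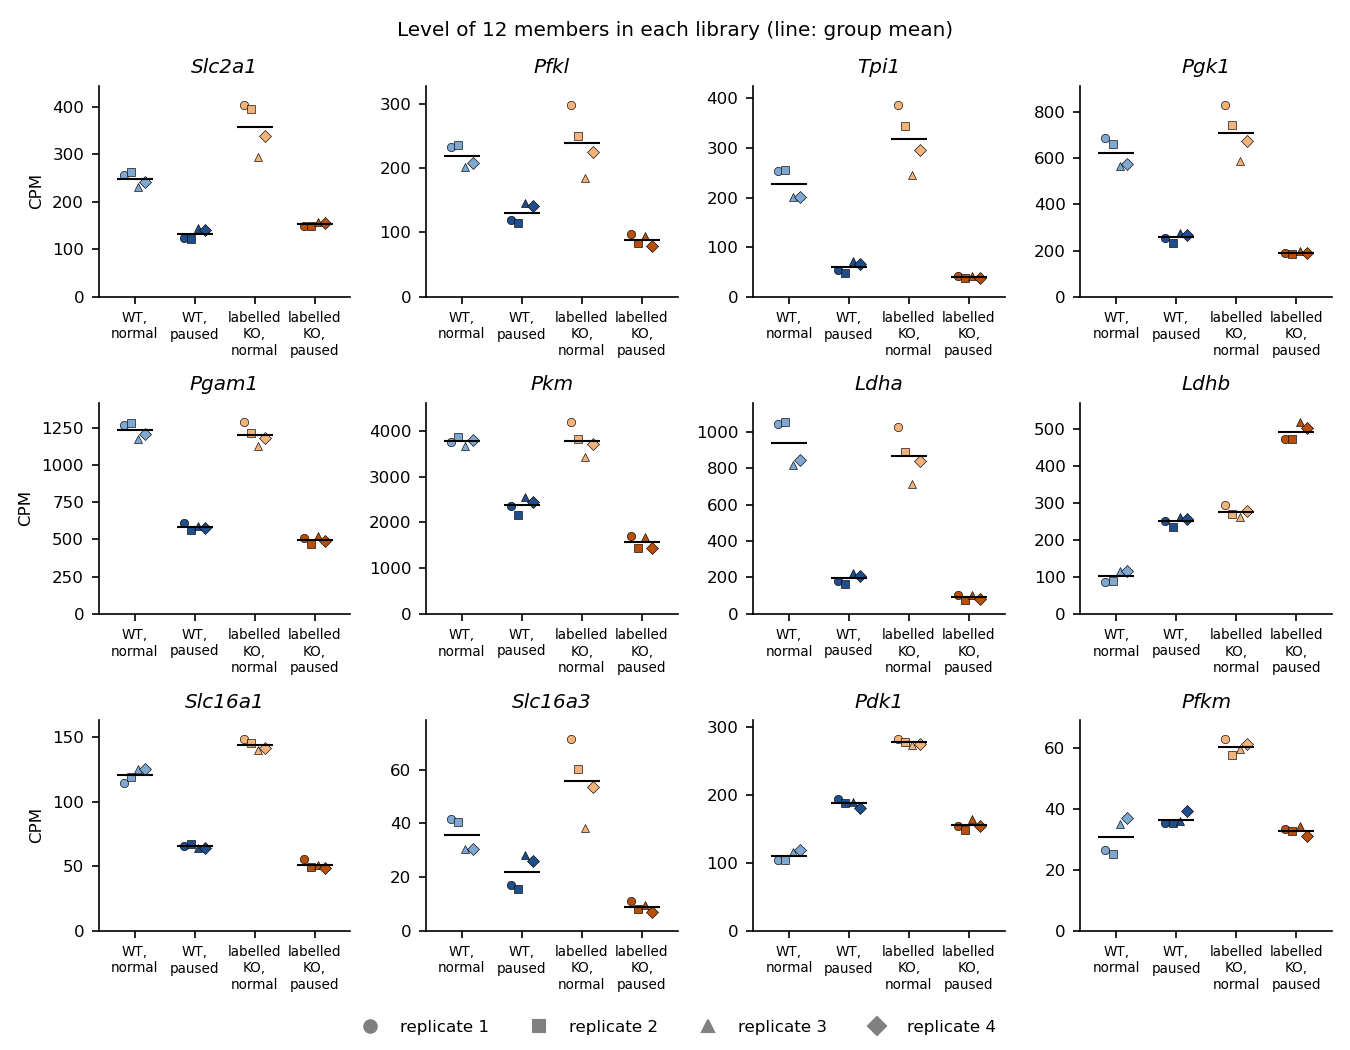
CPM of 12 members in each library by group, with symbols for replicate numbers 1 to 4 and a line for the mean. The normal libraries of Slc16a3 spread from 30.3 to 71.5 CPM. Pdk1 rises on pausing in WT and falls in libraries labelled KO.

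The middle of the pathway fell together, apart from GAPDH. Triose phosphate isomerase (Tpi1), which interconverts the triose sugars, was at 254, 255, 202 and 200 CPM in WT normal and at 54.3, 48.5, 71.9 and 67.0 CPM in WT paused libraries. Libraries labelled KO were at 386, 345, 246 and 297 CPM in normal and at 42.1, 37.8, 42.0 and 38.1 CPM in paused culture. Every paused library was below every normal library of its genotype, and those labelled KO were below paused WT. It fell by 1.91 ± 0.15 in WT (adjusted p = 4.1e-08), or 3.77-fold, and by 2.99 ± 0.16 in cells labelled KO (adjusted p = 3.7e-10), or 7.97-fold. The interaction was −1.08 ± 0.21 (adjusted p = 0.00083).

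Phosphoglycerate kinase (Pgk1), the first step that makes ATP, was at 686, 662, 568 and 575 CPM in WT normal, 254, 231, 276 and 269 CPM in WT paused, 830, 746, 588 and 676 CPM in normal and 189, 184, 196 and 188 CPM in paused libraries labelled KO. The groups of normal and paused libraries were separate in both genotypes. Pgk1 fell by 1.27 ± 0.09 in WT (adjusted p = 3.7e-09) and by 1.91 ± 0.09 in cells labelled KO (adjusted p = 2.9e-11), with an interaction of −0.63 ± 0.13 (adjusted p = 0.00084). Phosphoglycerate mutase (Pgam1) was at 1272, 1286, 1174 and 1210 CPM in WT normal, 614, 564, 588 and 580 CPM in WT paused, 1290, 1216, 1130 and 1181 CPM in normal and 512, 473, 525 and 490 CPM in paused libraries labelled KO. Normal libraries of both genotypes overlapped each other and stood clear of the paused ones. It fell by 1.08 ± 0.05 and 1.27 ± 0.05 (adjusted p = 9.4e-13 and 8.5e-14). Its interaction, −0.19 ± 0.06 (adjusted p = 0.02), was lost without WT normal replicate 3 (−0.13), or without paused labelled KO replicate 2 (−0.16) or 4 (−0.17).

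Pyruvate kinase (Pkm), the last ATP-making step, was at 3752, 3862, 3666 and 3796 CPM in WT normal and at 2357, 2150, 2561 and 2438 CPM in WT paused libraries. In libraries labelled KO it was at 4189, 3819, 3424 and 3708 CPM in normal and at 1699, 1427, 1683 and 1436 CPM in paused culture. The paused libraries labelled KO were the lowest, with no overlap with paused WT. It fell by 0.67 ± 0.07 in WT (adjusted p = 1.6e-07) and by 1.28 ± 0.07 in cells labelled KO (adjusted p = 3.4e-11), and the interaction was −0.61 ± 0.10 (adjusted p = 7.8e-05). Aldoa, the main aldolase, fell by 0.73 and 0.95, with no interaction call at −0.21 (adjusted p = 0.061). Aldoc, a minor aldolase, was at 4.72, 4.31, 6.32 and 6.79 CPM in WT normal, 2.98, 2.60, 3.37 and 3.08 CPM in WT paused, 17.0, 15.3, 8.75 and 11.5 CPM in normal and 3.78, 4.52, 3.78 and 3.72 CPM in paused libraries labelled KO. Paused libraries were lower without overlap in both genotypes. It fell by 0.88 ± 0.19 (adjusted p = 0.0007) and 1.73 ± 0.18 (adjusted p = 3.4e-07).

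The main Pkm forms differ by 1 alternative exon of 167 bases, which decides between the PKM1 and PKM2 enzymes. The 2 exons are shown because the transcript estimates separate by them: Pkm-202 carries chr9:59675029-59675195 and Pkm-201 carries the downstream chr9:59675568-59675734 (GRCm38, GENCODE M21). Textbook gene structure puts the PKM1 exon upstream of the PKM2 exon.
Pkm-202 exon: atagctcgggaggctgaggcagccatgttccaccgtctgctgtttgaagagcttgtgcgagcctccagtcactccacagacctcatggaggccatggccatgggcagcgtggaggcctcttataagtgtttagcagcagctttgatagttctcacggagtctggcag
Pkm-201 exon: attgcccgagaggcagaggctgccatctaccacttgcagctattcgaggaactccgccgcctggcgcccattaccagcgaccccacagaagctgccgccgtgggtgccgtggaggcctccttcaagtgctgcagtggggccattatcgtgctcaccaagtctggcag
Pkm-201 made up 92.4% of the Pkm TPM in WT normal, 92.0% in WT paused, 90.3% in normal and 86.9% in paused libraries labelled KO (means of 4). Pkm-202 made up 2.42% to 3.15%, 2.24% to 2.72%, 4.16% to 4.76% and 4.36% to 5.52% in the same groups. The share of Pkm-202 thus did not overlap between libraries labelled KO and WT, and stayed minor in all 16 libraries.

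Enolases differed by gene. Eno1, the general form, fell by 0.56 ± 0.08 in WT and 0.98 ± 0.08 in cells labelled KO, and Eno3, the muscle form, fell by 0.74 ± 0.06 and 0.92 ± 0.06. Eno2, the neuronal form, rose from 1.83 ± 0.29 to 2.79 ± 0.21 CPM (SD, n = 4) in WT and from 4.60 ± 1.02 to 8.51 ± 0.39 CPM in libraries labelled KO. Gapdh, the step between Tpi1 and Pgk1, barely moved: −0.09 ± 0.04 in WT (adjusted p = 0.064) and −0.17 ± 0.04 in cells labelled KO (adjusted p = 0.00083). Gapdh had the highest TPM of the members in WT normal libraries, 4053 ± 292 (SD, n = 4). Bpgm, which makes 2,3-bisphosphoglycerate, fell by 0.38 and 0.74.

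The upper steps split. Glucose transporter 1 (Slc2a1) was at 255, 263, 231 and 243 CPM in WT normal, 123, 121, 146 and 140 CPM in WT paused, 403, 395, 294 and 338 CPM in normal and 150, 148, 157 and 155 CPM in paused libraries labelled KO. The groups did not overlap within either genotype, and the highest levels were in normal libraries labelled KO. It fell by 0.91 ± 0.09 (adjusted p = 1.1e-07) and 1.23 ± 0.09 (adjusted p = 2.1e-09). Its interaction of −0.33 ± 0.12 (adjusted p = 0.039) was lost without any 1 of 12 of the 16 libraries (−0.34 to −0.25): each WT normal and each paused labelled KO library, WT paused replicates 3 and 4, and normal labelled KO replicates 1 and 2. Slc2a3, the high-affinity transporter, was at 423, 391, 368 and 373 CPM in WT normal, 451, 464, 418 and 425 CPM in WT paused, 724, 708, 548 and 585 CPM in normal and 1085, 1191, 1074 and 1140 CPM in paused libraries labelled KO. Normal and paused WT libraries overlapped, and the 4 paused libraries labelled KO lay above all others. Its change was 0.18 ± 0.08 in WT (adjusted p = 0.054). It passed with replicates 1 and 2 alone (0.17, adjusted p = 0.016), with replicates 3 and 4 alone (0.18, adjusted p = 0.0021), and without WT normal replicate 1 (0.22) or WT paused replicate 3 (0.20). It rose by a log2 fold change of 0.81 ± 0.08 in cells labelled KO (adjusted p = 6.3e-08), with an interaction of 0.63 ± 0.11 (adjusted p = 0.00019). Slc2a1 made up 43.5% to 47.1% of the summed TPM of both in WT normal and 25.9% to 31.6% in WT paused libraries. With the KO label it made up 41.01% to 43.15% in normal and 14.3% to 16.7% in paused culture.

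Hexokinases, which trap glucose in the cell, moved little. Hk1 rose by a log2 fold change of 0.38 ± 0.08 in WT, which was 0.64 with replicates 1 and 2 alone and 0.15 with replicates 3 and 4 alone, and by 0.27 ± 0.08 in cells labelled KO, where the same pairs gave 0.12 and 0.42. Hk2 was at −0.07 ± 0.04 in WT (adjusted p = 0.15) and fell by 0.31 ± 0.04 in cells labelled KO. Gpi1, the glucose-6-phosphate isomerase, was at 0.06 ± 0.04 in WT (adjusted p = 0.14) and fell by 0.37 ± 0.04 in cells labelled KO.

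Phosphofructokinase, the committed step, showed 3 patterns among its isozymes. Pfkl, the liver form, was at 232, 236, 201 and 209 CPM in WT normal, 119, 114, 146 and 140 CPM in WT paused, 298, 250, 185 and 225 CPM in normal and 97.7, 82.9, 93.7 and 78.5 CPM in paused libraries labelled KO. Paused libraries were lower without overlap in both genotypes. It fell by 0.76 ± 0.13 (adjusted p = 0.0001) and 1.44 ± 0.13 (adjusted p = 1.2e-07). Pfkm, the muscle form, was at 26.5, 25.2, 35.0 and 37.0 CPM in WT normal, 35.4, 35.2, 36.1 and 39.2 CPM in WT paused, 62.9, 57.7, 59.7 and 61.2 CPM in normal and 33.4, 32.7, 34.3 and 30.96 CPM in paused libraries labelled KO. WT normal and paused libraries overlapped, and those labelled KO did not. Pfkm fell by 0.88 ± 0.09 in cells labelled KO (adjusted p = 3.5e-07), and the interaction was −1.12 ± 0.13 (adjusted p = 6.6e-06). Its WT change of 0.24 ± 0.10 (adjusted p = 0.039) was not held: it was lost without WT normal replicate 1 (0.17) or 2 (0.13) or without WT paused replicate 1 (0.25), 3 (0.24) or 4 (0.20), and it was 0.06 with replicates 3 and 4 alone.

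Pfkp, the platelet form, was at 237, 224, 206 and 195 CPM in WT normal, 168, 170, 187 and 191 CPM in WT paused, 572, 569, 491 and 526 CPM in normal and 477, 516, 474 and 526 CPM in paused libraries labelled KO. Libraries labelled KO lay above all WT libraries. The pausing change was −0.27 ± 0.06 in WT (adjusted p = 0.0015) and −0.11 ± 0.06 in cells labelled KO (adjusted p = 0.12). In WT it was −0.45 with replicates 1 and 2 alone and −0.09 with replicates 3 and 4 alone (adjusted p = 0.15). On length-scaled TPM counts it was −0.44 in WT (adjusted p = 7.3e-06) and −0.23 in cells labelled KO (adjusted p = 0.0033). Pfkp made up 45.8% to 49.8% of the summed TPM of the 3 genes in WT normal and 48.0% to 50.4% in WT paused libraries. With the KO label it made up 62.81% to 68.65% in normal and 77.4% to 81.2% in paused culture.

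The bifunctional PFKFB enzymes make and remove fructose-2,6-bisphosphate, the strongest activator of phosphofructokinase. Pfkfb2 was at 8.94, 8.30, 6.81 and 7.31 CPM in WT normal, 10.7, 11.5, 11.4 and 10.6 CPM in WT paused, 7.61, 7.86, 7.88 and 7.70 CPM in normal and 18.3, 20.1, 17.7 and 19.4 CPM in paused libraries labelled KO. Normal libraries of the genotypes overlapped, and the paused libraries labelled KO were the highest. It rose by a log2 fold change of 0.49 ± 0.07 in WT (adjusted p = 1e-05; 0.21, adjusted p = 0.055, on length-scaled TPM counts) and 1.28 ± 0.07 in cells labelled KO (adjusted p = 2.7e-11), with an interaction of 0.79 ± 0.10 (adjusted p = 8.9e-06). Pfkfb3 rose by 0.20 ± 0.06 in WT (0.30 with replicates 1 and 2 alone and 0.09, adjusted p = 0.32, with replicates 3 and 4 alone) and fell by 0.39 ± 0.06 in cells labelled KO, with an interaction of −0.59 ± 0.08 (adjusted p = 2e-05). Pfkfb4, at 2.06 to 4.87 CPM, changed by 0.27 ± 0.12 in WT (adjusted p = 0.05, called just under the threshold before rounding and lost under 16 of 20 alternatives) and by −0.09 ± 0.11 in cells labelled KO (adjusted p = 0.51).

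Pyruvate dehydrogenase kinases moved in different directions, and Pdk1 did so by genotype. PDK1 phosphorylates and switches off pyruvate dehydrogenase. Pdk1 was at 103, 103, 116 and 118 CPM in WT normal and at 193, 187, 190 and 181 CPM in WT paused libraries. In libraries labelled KO it was at 282, 278, 272 and 275 CPM in normal and at 154, 148, 164 and 155 CPM in paused culture. The 4 libraries of each group lay close together and no 2 groups overlapped. Pdk1 rose by a log2 fold change of 0.77 ± 0.04 in WT (adjusted p = 4.2e-11) and fell by 0.84 ± 0.04 in cells labelled KO (adjusted p = 1e-11). The interaction was −1.61 ± 0.06 (adjusted p = 5.1e-12), from −1.64 to −1.54 when 1 library was left out.

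Pdk2 rose by a log2 fold change of 0.94 ± 0.06 in WT and 0.80 ± 0.06 in cells labelled KO, both on low levels of 4.13 to 15.5 CPM. Pdk4 rose by 0.90 ± 0.09 and 0.38 ± 0.08, the latter 0.23 (adjusted p = 0.071) on length-scaled TPM counts. Pdk3 fell by 0.60 ± 0.04 and 0.84 ± 0.04. Pdk1 made up 66.9% to 70.4% of the summed Pdk TPM in WT normal and 81.1% to 82.6% in WT paused libraries, and 76.7% to 77.5% and 68.4% to 71.1% in normal and paused libraries labelled KO. The E1 subunits of the complex moved less: Pdhb fell by 0.39 ± 0.04 in WT and 0.16 ± 0.04 in cells labelled KO, and Pdha1 was at 0.08 ± 0.04 in WT (adjusted p = 0.088) and rose by a log2 fold change of 0.27 ± 0.04 in cells labelled KO.

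Cells labelled KO already differed from WT in normal culture. Of the 32 members, 19 were higher, 5 lower and 8 did not pass, where 68.2% of all genes passed, 34.1% higher and 34.1% lower. The median difference was 0.45, beside −0.03 over all genes. Ldhb (1.45), Pdk4 (1.34), Pdk1 (1.33), Eno2 (1.33), Pfkp (1.32) and Aldoc (1.25, 0.63 with replicates 3 and 4 alone) were higher by over 1 on the log2 scale, and Eno3 was lower (−1.39), where 7.98% and 13.3% of all genes differed as far. Ldha was at −0.12 ± 0.14 (adjusted p = 0.46) and Pkm at 0.01 ± 0.07 (adjusted p = 0.94). In paused culture 14 members were higher and 14 lower, where 65.4% of all genes passed, 30.8% higher and 34.5% lower, and the median was 0.01, beside −0.03. There Ldha (−1.08 ± 0.14), Slc16a3 (−1.28 ± 0.24, −0.77 with replicates 1 and 2 alone) and Eno3 (−1.57 ± 0.06) were lower by over 1, and Eno2 (1.61 ± 0.13), Pfkp (1.48 ± 0.07) and Slc2a3 (1.35 ± 0.08) were higher by over 1, where 11.8% and 6.46% of all genes differed as far. Pdk1 was at −0.28 ± 0.04 there, and at −0.58 on length-scaled TPM counts. These 2 comparisons share their libraries with the pausing comparisons above.

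**Figure D4:**
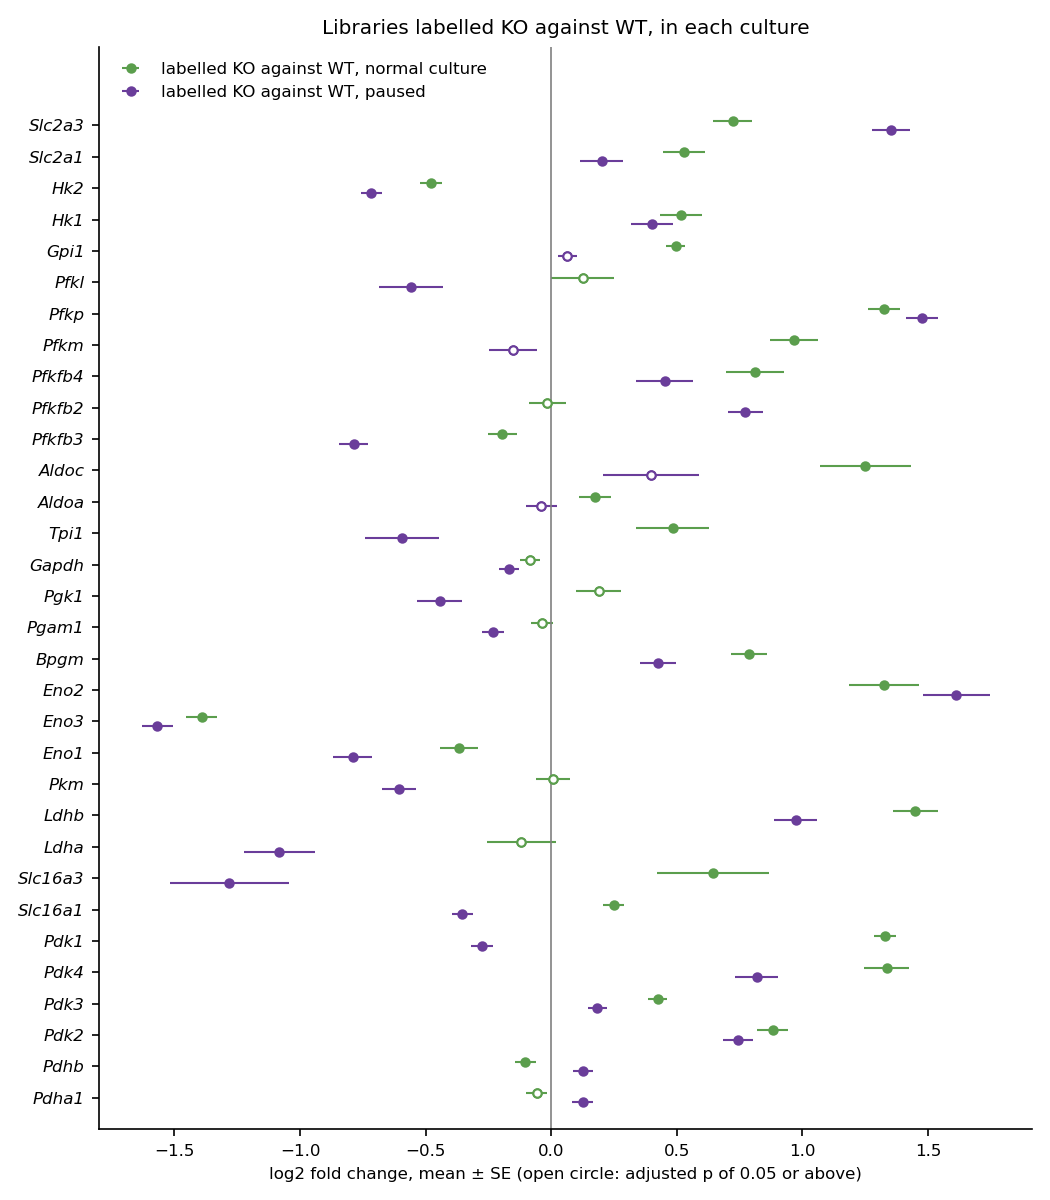
Log2 fold change of libraries labelled KO against WT for the 32 members in normal culture (green) and when paused (purple), with SE as bars and open circles for changes that did not pass. Ldha lies at −0.12 in normal culture and −1.08 when paused, and Pdk1 moves from 1.33 to −0.28.

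Reads shared with near-copies were examined for each member as 31-mers common to transcripts, the length at which kallisto compares sequence. Ldha has 7 annotated pseudogenes that share at least 100 of these, yet they held at most 0.266% of the summed CPM, and Tpi1 has 2, with at most 0.0256%. Pooling them left Ldha at −2.28 and −3.24, and Tpi1 at −1.92 in WT. Gapdh has 126 such pseudogenes, with 6.25% to 8.31% of the summed counts in WT normal and 2.16% to 2.70% in WT paused libraries. Gm10359, one of these, was at 78.4 to 124 CPM in the 8 normal libraries and at most 6.30 CPM in the 8 paused ones. Gm12671 had the same values in every library, so reads of Gm10359 and Gm12671 cannot be told apart. Gm7336, another, moved less, from 26.1 to 33.7 CPM in normal to 17.5 to 23.5 CPM in paused libraries. With its pseudogenes pooled, Gapdh fell by 0.16 in WT (adjusted p = 0.0013) and by 0.26 in cells labelled KO (adjusted p = 7e-06), and the WT change, not called at −0.09, also passed in 7 other alternatives without pooling (adjusted p = 0.0074 to 0.04), among them DESeq2 and the fits without WT normal replicate 2 or 3 or WT paused replicate 1. Gm5537, which shares 54.6% of the Pgk1 31-mers, was at 0.104 to 15.8 CPM in normal libraries and at 0 CPM in all 8 paused ones. Pgk1 was at −1.30 and −1.92 with its pseudogenes pooled. Eno1b, annotated as a protein-coding gene, shares 27.8% of the Eno1 31-mers and was at 1367 to 1996 CPM in normal and 624 to 1323 CPM in paused libraries, against 821 to 1215 and 414 to 863 CPM for Eno1. Pooled, Eno1 and Eno1b fell by 0.63 in WT and 1.09 in cells labelled KO, beside 0.56 and 0.98 for Eno1 alone, an alternative chosen after seeing the data. Pgam1-ps2 shares 37.1% of the Pgam1 31-mers and was at 53.8 to 75.1 CPM in normal and 27.7 to 35.6 CPM in paused libraries. With its pseudogenes pooled, Pgam1 was at −1.08 in WT and −1.25 in cells labelled KO. Map3k15, Pitrm1 and Yod1 share 14%, 5.28% and 1.72% of the 31-mers of Pdha1, Pfkp and Pfkfb2. Gm29427, at most at 0.188 CPM, shares 16.6% of those of Pfkfb2. Reads from the shared stretches of these pairs cannot be told apart with certainty.

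**Figure D5:**
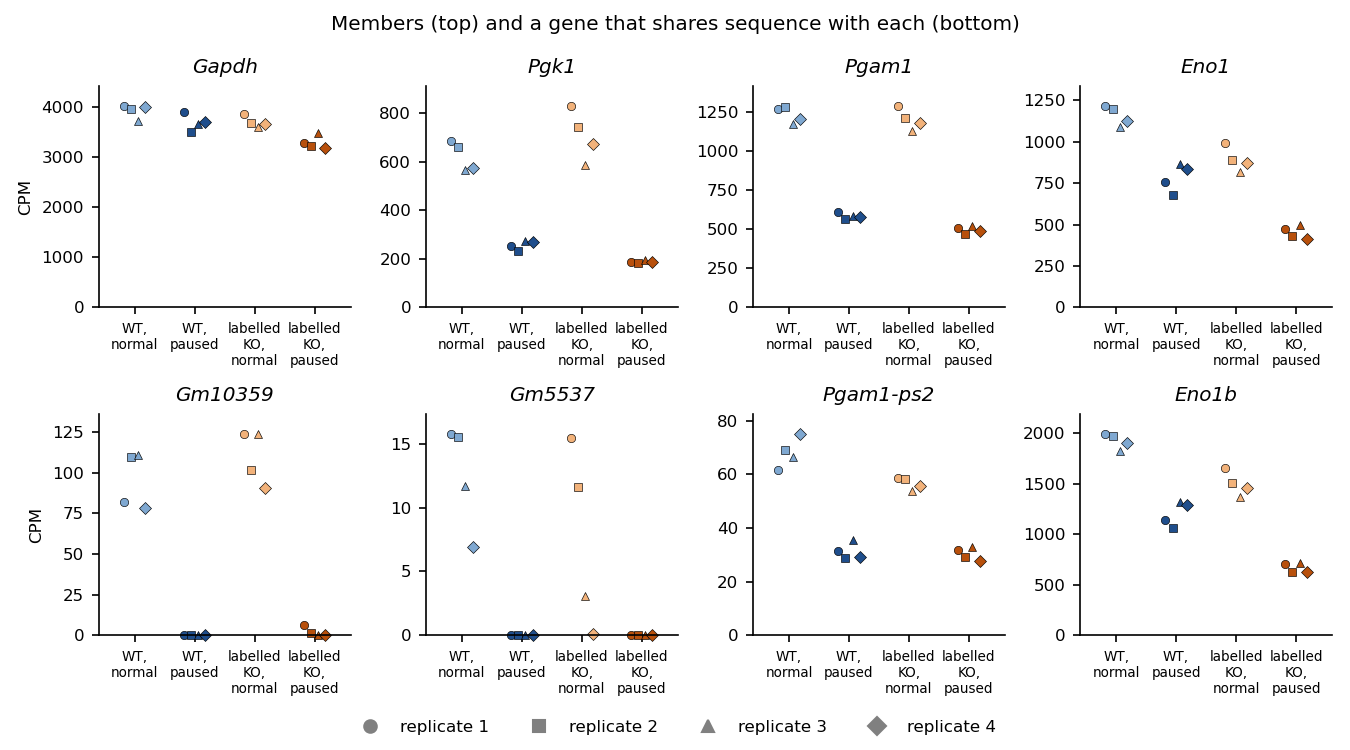
CPM of Gapdh, Pgk1, Pgam1 and Eno1 (top) and of a gene that shares sequence with each (bottom), by library and group, with symbols for replicates 1 to 4. Gm10359 and Gm5537 lie near 0 CPM in the paused libraries, while Eno1b lies above Eno1.

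Genes around the pathway were taken from lists, whose counts stand beside the 60.7% of all genes called in WT and the 67.2% in cells labelled KO. Of 9 genes of pyruvate entry and oxidation, 3 rose and 5 fell in WT, and 2 rose and 6 fell in cells labelled KO (88.9% called in each). Pdp1, a phosphatase that reactivates pyruvate dehydrogenase, rose by a log2 fold change of 1.20 ± 0.08 in WT (adjusted p = 2.6e-10) and was at 0.15 ± 0.08 in cells labelled KO (adjusted p = 0.11), with an interaction of −1.05 ± 0.11 (adjusted p = 9.7e-07). Of 13 pentose phosphate and side branch genes, 10 fell and 1 rose in each genotype (84.6% called), with Gpd1 at −1.39 in WT and Gpd1l at −1.38 in cells labelled KO as the largest falls. Of 5 gluconeogenesis genes, 3 fell and 1 rose in WT (80% called) and 1 fell and 1 rose in cells labelled KO (40%, below the share of all genes). Pck2, the mitochondrial phosphoenolpyruvate carboxykinase, fell by 1.66 ± 0.11 and 0.70 ± 0.10, and Fbp2 was at −1.68 ± 0.22 in WT (adjusted p = 2.1e-06). Of 19 further isozymes tested, 4 rose and 6 fell in WT (52.6%, below the share of all genes) and 6 rose and 8 fell in cells labelled KO (73.7%). Slc2a4 (1.46) and Gapdhs (1.02) rose by over 1 in WT, and Gapdhs (1.46), Slc16a7 (1.46) and Aldoart2 (1.22) in cells labelled KO, where Hkdc1 (−2.01), Pgam2 (−1.38), Pklr (−1.31) and Eno1b (−1.16) were among those that fell as far; apart from Eno1b the genes named here were all below 4 CPM.

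Among 16 regulators of the pathway, 8 rose and 7 fell in WT (93.8% called) and 5 rose and 9 fell in cells labelled KO (87.5%), beside 60.7% and 67.2% of all genes. Epas1, which encodes the HIF-2α subunit, rose by a log2 fold change of 0.80 ± 0.13 in WT (adjusted p = 8.1e-05) and fell by 0.64 ± 0.13 in cells labelled KO (adjusted p = 0.00051), with an interaction of −1.44 ± 0.18 (adjusted p = 2.6e-05). Myc, Mycn and Hif1a, under 1 in both, are named after their values were seen. Myc rose by 0.68 ± 0.14 in WT and fell by 0.45 ± 0.15 in cells labelled KO, and Mycn did the opposite, at −0.56 ± 0.11 and 0.51 ± 0.11. Hif1a changed by −0.14 ± 0.04 in WT (adjusted p = 0.0023) and by 0.00 ± 0.04 in cells labelled KO (adjusted p = 0.99). Txnip, which lowers glucose uptake, rose by 1.25 ± 0.06 and 0.89 ± 0.05. The HIF prolyl hydroxylases Egln1 and Egln3 fell by 1.13 ± 0.09 and 1.80 ± 0.19 in cells labelled KO. Among 14 HIF targets outside glycolysis, 2 rose and 5 fell in WT and 3 rose and 10 fell in cells labelled KO. These are 50% called in WT, below the share of all genes, and 92.9% in cells labelled KO, with medians of −0.17 and −0.71 beside 0.04 and 0.02 over all genes. Car12 (−1.58) fell and Car9 (1.47) rose by over 1 in WT, and Car12 (−1.73), Bnip3 (−1.35), Higd1a (−1.35) and Ankrd37 (−1.16) fell by over 1 in cells labelled KO.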

How the data were processed

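The authors ran kallisto on GRCm38 transcripts, per the submitters' processing notes; its version is not given in the sources used here. Each deposited table gives, per the file headers, a transcript's effective length, its estimated count and its TPM. Poly(A) RNA was isolated with a NEBNext module, per the labels' protocols. Of 118489 transcripts, 116728 matched GENCODE M21. Summing over transcripts gave 35968 genes, whose totals were rounded. A second record named Aldoa was left out. Genes were kept with filterByExpr (minimum count 10, 18944 genes) and scaled by TMM (factors 0.933 to 1.07). Tests were edgeR 4.0.16 robust quasi-likelihood F tests in R 4.3.3, two-sided, 1 mean per group, 16 libraries in 1 fit, adjusted by Benjamini-Hochberg over all tested genes, threshold 0.05. Each SE was derived from the log2 fold change and its F statistic. Alternatives included DESeq2 1.42.0. Values per library are given for members with a pausing change or interaction of at least 1 on the log2 scale, and for partner isozymes where these are compared; other genes are named at a change of at least 1 past the threshold. The script was tested on simulated data. Members and lists were chosen with earlier results of these data known. Replicate numbers were not treated as pairs, since the labels do not say that they mark any. Between groups, deviations from the group means correlated weakly for the same number (0 of 24 pairs with a correlation over 0.1). The own number was the best match in 11 of 24, so these values do not settle whether the numbers mark pairs. The value of 1 gene among the further isozymes is not reported here.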

Additional observations from a re-analysis of the deposited data

Results flagged for a closer look

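The pausing response of cells labelled KO differed from that of WT for 24 members, by the interaction test of edgeR. The log2 differences, labelled KO minus WT, were positive for Pfkfb2 (0.79), Slc2a3 (0.63), Pdhb (0.23) and Pdha1 (0.18). They were under −1 for Slc16a3 (−1.93), Pdk1 (−1.61), Pfkm (−1.12) and Tpi1 (−1.08). They lay between −1 and −0.50 for Ldha (−0.96), Aldoc (−0.85), Pfkl (−0.68), Pgk1 (−0.63), Pkm (−0.61), Slc16a1 (−0.60), Pfkfb3 (−0.59) and Pdk4 (−0.52). They were smaller for Ldhb (−0.48), Gpi1 (−0.43), Eno1 (−0.42), Bpgm (−0.36), Slc2a1 (−0.33), Pdk3 (−0.24), Hk2 (−0.24) and Pgam1 (−0.19). With replicates 3 and 4 alone, Aldoc was at −0.40 (adjusted p = 0.088) and Pdk4 at −0.28 (adjusted p = 0.17), and Pdhb was at 0.14 (adjusted p = 0.13) on length-scaled TPM counts, as was Pdha1 at 0.15 (adjusted p = 0.058). Hk2 was at −0.17 (adjusted p = 0.067) with replicates 1 and 2 alone.

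In 128 groups of 4 libraries (32 members in 4 groups), 1 library lay far from the other 3: Aldoc was at 4.52 CPM in paused labelled KO replicate 2 and at 3.72 to 3.78 CPM in the others. Chance alone flags about 1 in 20 such groups.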

How the results depend on the processing

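Among counts of genes or members past the threshold, in all or by direction, 1 moved by over 1.5 times: 4 members had a positive interaction, and 2 on length-scaled TPM counts. Members called ranged from 23 to 29 for pausing in WT, 30 to 31 for pausing in cells labelled KO and 22 to 27 for the interaction. Of all genes, 60.7%, 67.2% and 41.9% were called in the main fit, in the same order. With the replicate number as a block, 28, 30 and 24 members were called in these comparisons. Under this block 24 and 27 were called for labelled KO against WT in normal and paused culture. There the main fit called 68.2% and 65.4% of all genes. Whether the replicate numbers mark pairs is not given in the labels. A call held under all alternatives for 21 of 27 members in WT, 29 of 30 in cells labelled KO and 17 of 24 interactions. The interaction of Hk1 was −0.12 (adjusted p = 0.46), but −0.52 (adjusted p = 5.1e-05) with replicates 1 and 2 alone and 0.28 (adjusted p = 0.00089) with replicates 3 and 4 alone, and the labelled KO against WT difference of Pdhb in normal culture was −0.10 and 0.028 on length-scaled TPM counts; the cause was not tested. With the replicate block, Slc2a3 (0.18, adjusted p = 0.0094) and Pdha1 (0.08, adjusted p = 0.018) passed for pausing in WT and Pfkfb4 did not (adjusted p = 0.055). Under the block the interaction of Aldoa passed (−0.21, adjusted p = 0.032), while Slc2a1 did not pass for the interaction (−0.33, adjusted p = 0.067) or for labelled KO against WT when paused (0.20, adjusted p = 0.08). The block changed no other member's call. Slc16a3, Hk1, Pfkp, Pfkm and Pfkfb3 had WT changes over 1.5 times as large in one pair of replicates as in the other. The same held for the WT changes of Pfkl, Eno1, Eno2, Pfkfb2 and Pfkfb4. For Eno1 the change was −0.74 with replicates 1 and 2 alone and −0.39 with replicates 3 and 4 alone. Pfkl was at −0.53 with replicates 3 and 4 alone, beside −0.76 in all libraries.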

Other observations

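In WT normal culture, replicates 3 and 4 did not overlap with replicates 1 and 2 for 27 of the 32 members, and 24 of these passed the test for pausing in WT. Replicates 3 and 4 lay in the direction of pausing for 20 of them, with Ldha at 820 and 848 CPM against 1046 and 1054 CPM. They lay in the opposite direction for 4, Slc16a1, Aldoc, Pfkfb2 and Eno2, with Slc16a1 at 125 and 125 CPM against 115 and 119 CPM. These counts were made for the members only, with no share over all genes, so they do not set the members apart from other genes. By the median chi-square given above, the pairs also differed over genes in general. What differs between these replicates is not given in the labels, and its part in the results was not tested.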
